A study of Mus musculus with 24 samples.

Results

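The EGR zinc finger factors (Egr1, Egr2 and Egr3), the NR4A orphan nuclear receptors (Nr4a1, Nr4a2 and Nr4a3), the early transcription regulators Ier2 and Klf6, and the feedback inhibitors Dusp1 and Zfp36 were followed in splenic conventional CD4+ T (Tconv CD4+) cells. These 10 genes were taken by symbol from 55414 genes in the deposited table of UMI-corrected counts, where a UMI count stands for 1 RNA molecule. All 10 passed the filter on low counts, which left 10566 genes to test. They were chosen by symbol with their levels and changes in these same libraries already known, so what follows describes them, and a call made for them is not independent evidence of its direction.

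Immediate-early genes are transcribed within minutes of a stimulus from factors that are already present in the cell, and their mRNAs and proteins are short-lived. In T cells, signals from the antigen receptor and CD28 reach them through the RAS and MAP kinase route, which activates SRF and its partners at CArG boxes, and through calcium, CREB and NFAT. NR4A proteins and Egr2 and Egr3 are known for restraining T cell responses, whereas Dusp1 dephosphorylates MAP kinases and Zfp36, also called tristetraprolin, binds AU-rich elements and speeds the decay of cytokine and early-gene mRNAs. The same genes are known to respond to the handling of cells.

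The study compared conplastic mice, which share C57BL/6J nuclear DNA and differ in mitochondrial DNA. Cells with C57BL/6J mtDNA are called mtDNA B6 here (WT in the labels), and cells with mtDNA of the NZB strain are called mtDNA NZB. CD4+ CD25- splenocytes, labelled TE, were isolated with magnetic beads and left resting (RES) or activated (ACT) with CD3/CD28 beads for 72 h, and 6 libraries were made for each haplotype and state. The methods give males of 2 to 3 months for most experiments, and the labels give no age or sex and do not say which libraries came from the same mouse, so the errors below cover the spread between libraries only. How resting cells were kept before lysis is not given in the sources used here. The methods name IL-2 together with the beads, in a sentence that covers Treg and Tconv cells.

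Libraries held 51409 to 6449395 UMI counts. The smallest was resting mtDNA NZB replicate 2, where 1 UMI is worth 16.9 CPM (UMI counts per 1000000 after scaling between libraries) and a count of 0 allows up to 50.8 CPM (3 counts); the next held 641467. Such limits cover counting error only. Cd4 was present in all groups, with medians of 560 to 648 CPM, and the activation marker Il2ra, the IL-2 receptor alpha chain, rose from a median of 3.17 to 76.3 CPM in mtDNA B6 cells and from 3.01 to 102 CPM in mtDNA NZB cells. Of the 8 T cell activation markers in its list, 5 rose and 0 fell with mtDNA B6 (adjusted p up to 0.05, edgeR). With mtDNA NZB 4 rose and 1 fell. Of all genes tested, 22.4% rose and 24.5% fell with mtDNA B6, and 25.2% and 28.4% with mtDNA NZB. Resting mtDNA NZB replicates 5 and 6 stood apart from the other resting libraries in several of the 10 genes, so results that rest on them are given with and without them. That alternative was chosen after seeing the data.

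To show the regulatory letters that these genes share, a search was run in the 300 bases around the start of the canonical transcript (250 before and 50 after) of 21757 protein-coding genes, on both strands, in GRCm39 with GENCODE annotation. The windows of Egr1, Nr4a2 and Zfp36 were left out, because the canonical start there is more than 500 bases from the RefSeq start or, for Egr1, the canonical transcript spans over 500 bases more than the RefSeq gene, so the search covers 7 of the 10 genes. This was decided after the matches were seen. A CArG box, the site of SRF, was found in 1.54% of these windows and, of the 7 genes, in Egr2 and Egr3. It began 65 bases upstream of the start in Egr2 (chr10:67373617-67373646, plus strand) and 58 bases upstream in Egr3 (chr14:70314282-70314311, plus strand). Both are printed 5′ to 3′ with the box in capitals.
Egr2: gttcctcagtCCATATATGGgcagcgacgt
Egr3: ctttgtctgtCCATATATGGgcagctacgt

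A cyclic AMP response element with the letters TGACGTCA, the site of CREB and its relatives, was found in 2.45% of windows and in Ier2 (chr8:85389508-85389537, minus strand, 43 bases upstream of the start) and Dusp1 (chr17:26727571-26727600, minus strand, 96 bases upstream), with the element in capitals.
Ier2: tggtgttgcagTGACGTCActctcagtata
Dusp1: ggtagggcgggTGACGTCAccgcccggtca

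An EGR site with the letters GCGNGGGCG was found in 6.22% of windows and, of the 7 genes, in Nr4a1. It lies on the opposite strand, 7 bases after the start, at chr15:101164657-101164686, and its complement is in capitals on the plus strand. The letters AAAGGTCA, bound by NR4A monomers, were found in 1.36% of windows and in none of the 7. In RefSeq windows of the same length around the RefSeq start (GRCm38), Zfp36 holds 1 CArG box and 1 EGR site, and Nr4a2 holds 1 EGR site.
Nr4a1: gcgtcagtggCGCCCCCGCccctctccatg

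The AU-rich nonamer TTATTTATT, the kind of element that Zfp36 binds, was searched on the transcript strand in the last 1000 bases of each canonical transcript, the part from which reads were counted. It was found in 4.14% of transcripts and in Dusp1, which holds 2 copies, the one farther from the transcript end being shown (chr17:26725132-26725161, minus strand, last exon), and in Zfp36 itself (chr7:28076375-28076404, minus strand, last exon), shown in capitals. A match of letters is a description and not evidence that a factor binds there.
Dusp1: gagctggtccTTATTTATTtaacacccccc
Zfp36: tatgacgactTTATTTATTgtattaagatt

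**Figure D1:**
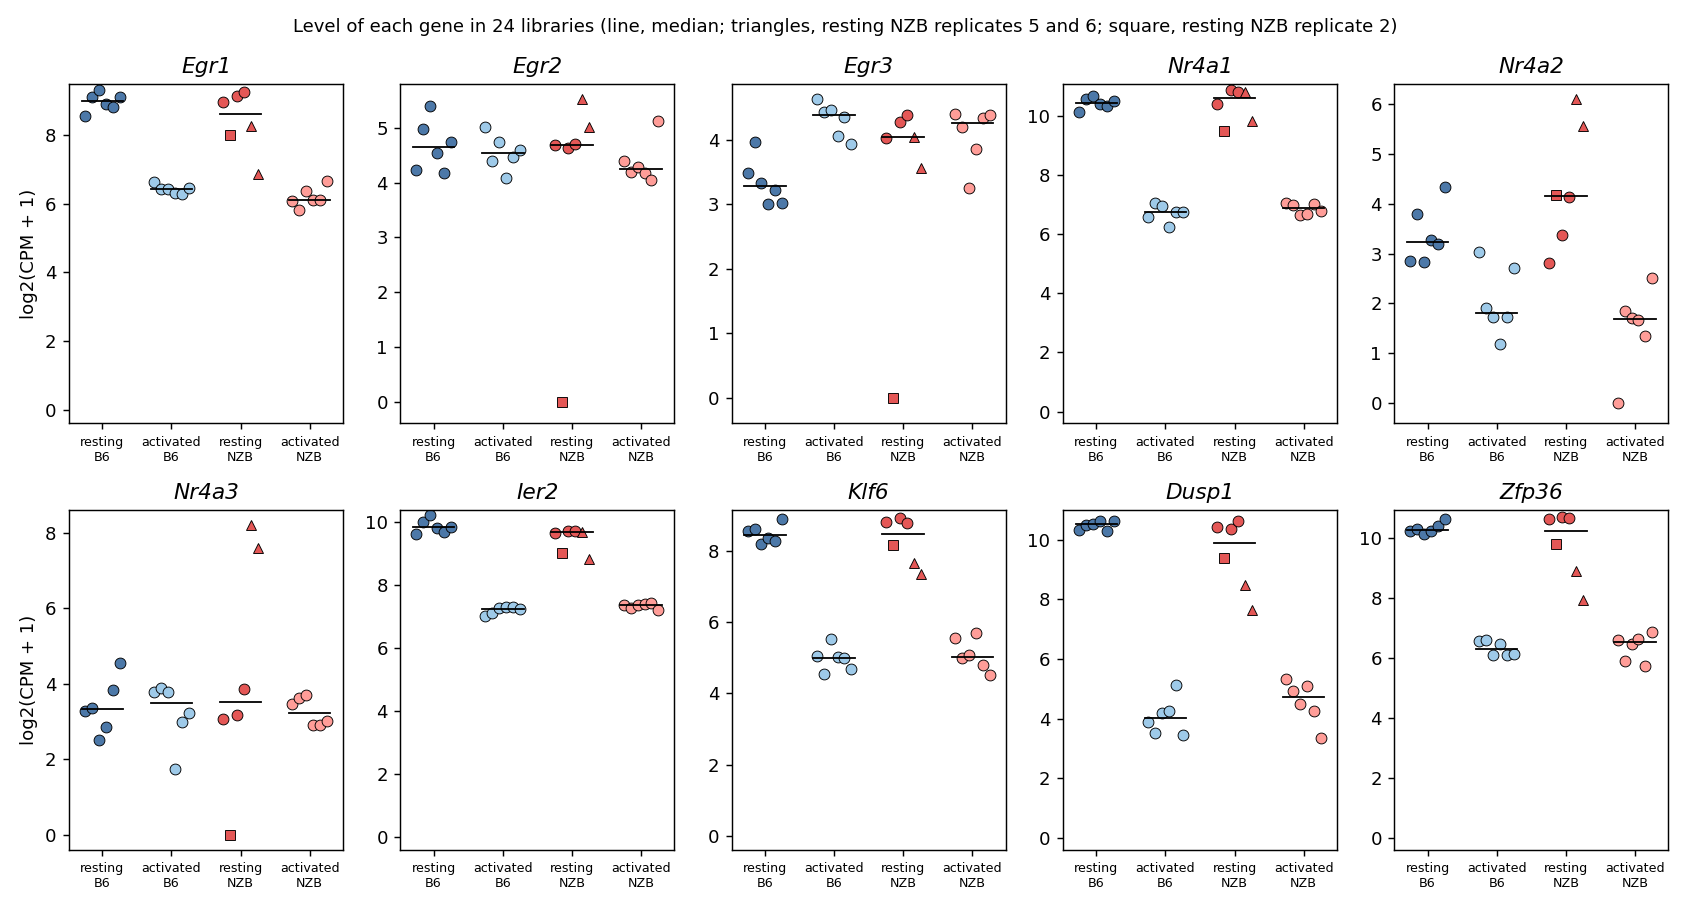
Level of each gene as log2(CPM + 1) in the 24 libraries, 6 points a group with a line at the median; each panel has its own vertical scale. Points for Egr1, Nr4a1, Ier2, Klf6, Dusp1 and Zfp36 are lower in every activated library than in every resting library of the same haplotype, while the triangles (resting mtDNA NZB replicates 5 and 6) lie far above the other resting points for Nr4a3.

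The feedback inhibitors were abundant at rest and low after activation. Dusp1 (ENSMUSG00000024190, chr17:26724564-26781102) had a resting range of 1244 to 1571 CPM, median 1451, with mtDNA B6, and an activated range of 9.90 to 33.5 CPM, median 15.5. With mtDNA NZB it ranged from 197 to 1577 CPM, median 989, at rest and from 9.23 to 38.8 CPM, median 25.5, after activation. The states did not overlap in either haplotype, and the lowest resting values, 352 and 197 CPM, belonged to replicates 5 and 6. Dusp1 fell 82.3-fold in mtDNA B6 cells (log2 fold change -6.36, SE 0.47, n = 6 against 6) and 39.3-fold in mtDNA NZB cells (-5.30, SE 0.45). Only 0.36% of the genes tested had a lower log2 fold change in mtDNA B6 cells.

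Zfp36 (ENSMUSG00000044786, chr7:28076209-28079710) ranged from 1126 to 1593 CPM, median 1240, in resting and from 67.6 to 95.5 CPM, median 78.5, in activated mtDNA B6 cells. The resting range with mtDNA NZB was 243 to 1660 CPM, median 1251, and the activated range 52.6 to 116 CPM, median 92.2. Every activated library again lay below every resting one. The fall was 16.0-fold (log2 fold change -4.00, SE 0.34) in mtDNA B6 and 12.9-fold (-3.68, SE 0.34) in mtDNA NZB cells.

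Ier2 and Klf6 fell as well. Ier2 (ENSMUSG00000053560, chr8:85387960-85389483), a small nuclear protein induced by growth factors, ranged from 785 to 1182 CPM, median 903, at rest and from 129 to 156 CPM, median 150.1, after activation, both with mtDNA B6. With mtDNA NZB the levels ran from 454 to 841 CPM, median 811, at rest and from 145 to 171 CPM, median 164. The activated libraries lay within a narrow band that no resting library reached. It fell 6.40-fold (log2 fold change -2.68, SE 0.14) and 4.50-fold (-2.17, SE 0.14).

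Klf6 (ENSMUSG00000000078, chr13:5911481-5920393), a Krüppel-like zinc finger factor, ranged from 297 to 478 CPM, median 355, in resting and from 22.3 to 45.6 CPM, median 31.2, in activated mtDNA B6 cells. The ranges with mtDNA NZB were 165 to 490 CPM, median 368, and 21.8 to 50.5 CPM, median 31.9. The states did not overlap. Klf6 fell 11.7-fold (log2 fold change -3.55, SE 0.26) and 10.3-fold (-3.37, SE 0.26).

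The EGR factors did not move together. Egr1 (ENSMUSG00000038418, on chromosome 18), an activator induced through the MAP kinase route, ranged from 378 to 641 CPM, median 516, in resting and from 77.0 to 98.5 CPM, median 85.6, in activated mtDNA B6 cells. Its range with mtDNA NZB was 117 to 608 CPM, median 406, at rest and 55.1 to 101 CPM, median 68.2, after activation, and the 117 CPM of resting replicate 6 came close to the highest activated library. Egr1 fell 5.95-fold (log2 fold change -2.57, SE 0.26) and 5.47-fold (-2.45, SE 0.26).

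Egr2 (ENSMUSG00000037868, chr10:67371305-67378018) held overlapping levels in the 4 groups. It ranged from 17.0 to 41.2 CPM, median 24.1, in resting and from 15.9 to 31.6 CPM, median 22.3, in activated mtDNA B6 cells. Cells with mtDNA NZB held 0 to 45.4 CPM, median 24.9, at rest and 15.5 to 33.9 CPM, median 18.0, after activation, and the 0 was in the smallest library. The groups overlapped, and the log2 fold changes were -0.16 (SE 0.24, 95% interval -0.63 to 0.31) and -0.49 (SE 0.25, -0.99 to 0.01). Egr2 was not called in either haplotype, although over 21 libraries (2 and 6 of the resting and 6 of the activated mtDNA NZB replicates left out) its change in mtDNA NZB cells was -0.75 (SE 0.25, adjusted p = 0.0162, edgeR). Without resting mtDNA NZB replicates 5 and 6 that change was -0.15 (SE 0.27, adjusted p = 0.679, edgeR) and was not called.

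Egr3 (ENSMUSG00000033730, chr14:70314350-70320063) was the exception in direction. It ranged from 7.05 to 14.6 CPM, median 8.72, in resting and from 14.3 to 23.9 CPM, median 19.97, in activated mtDNA B6 cells. With mtDNA NZB the resting range was 0 to 19.9 CPM, median 15.5, with the 0 again in the smallest library, and the activated range was 8.51 to 20.1 CPM, median 18.2. With mtDNA B6, Egr3 rose 2.03-fold (log2 fold change 1.02, SE 0.22), and the highest resting library just overlapped the lowest activated one. Its log2 fold change with mtDNA NZB was 0.04 (SE 0.23, 95% interval -0.41 to 0.48). The difference between these responses was -0.99 (SE 0.32, adjusted p = 0.210, edgeR interaction term) and did not pass the threshold.

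Among the NR4A receptors, which act without a classical hormone ligand and depend on their level of expression, Nr4a1 fell by similar amounts in both haplotypes. Nr4a1 (ENSMUSG00000023034, chr15:101151980-101172681), also called Nur77 and used as a reporter of antigen receptor signalling, ranged from 1108 to 1600 CPM, median 1388, in resting and from 74.2 to 132 CPM, median 107, in activated mtDNA B6 cells. Libraries with mtDNA NZB ranged from 711 to 1842 CPM, median 1561, at rest and from 99.1 to 132 CPM, median 118, after activation. No activated library reached a resting one. The fall was 13.0-fold (log2 fold change -3.70, SE 0.20) and 12.3-fold (-3.62, SE 0.20).

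Nr4a2 (ENSMUSG00000026826, chr2:56996842-57014331), the NR4A receptor best known in dopamine neurons, was sparse. It ranged from 6.07 to 19.2 CPM, median 8.38, in resting and from 1.27 to 7.13 CPM, median 2.53, in activated mtDNA B6 cells, with 18 to 51 and 6 to 28 UMI counts a library. Nr4a2 with mtDNA NZB ranged from 6.01 to 67.4 CPM, median 16.7, at rest and from 0 to 4.69 CPM, median 2.23, after activation; the 0, in a library of 641467 UMI counts, allows up to 4.31 CPM. The states overlapped in mtDNA B6 cells and not in mtDNA NZB cells. Nr4a2 fell 2.86-fold (log2 fold change -1.52, SE 0.52) and 10.4-fold (-3.38, SE 0.55). Without resting replicates 5 and 6 the fall in mtDNA NZB cells was -1.94 (SE 0.47), near that in mtDNA B6 cells. The call in mtDNA B6 cells (adjusted p = 0.0188, edgeR) was lost without activated mtDNA B6 replicate 4 (0.0503) and without resting mtDNA B6 replicate 6 (0.0689). It was also lost with the set of libraries by reads per UMI as a term (adjusted p = 0.106, edgeR).

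Nr4a3 (ENSMUSG00000028341, chr4:48045153-48086447), which is read, like Nr4a1, as a marker of recent antigen receptor signalling, showed its largest values in resting mtDNA NZB cells. It ranged from 4.72 to 22.6 CPM, median 9.0, in resting and from 2.33 to 13.8 CPM, median 10.5, in activated mtDNA B6 cells. Nr4a3 with mtDNA NZB ranged from 0 to 292 CPM, median 10.7, at rest and from 6.50 to 12.1 CPM, median 8.55, after activation. The states overlapped in both haplotypes, and resting replicates 5 and 6 lay far above all other libraries. The log2 fold change was -0.21 (SE 0.73, 95% interval -1.64 to 1.22) with mtDNA B6. Nr4a3 fell 11.0-fold with mtDNA NZB (-3.46, SE 0.73), but without those 2 libraries the change was -0.07 (SE 0.44, adjusted p = 0.918, edgeR) and the call was gone.

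**Figure D2:**
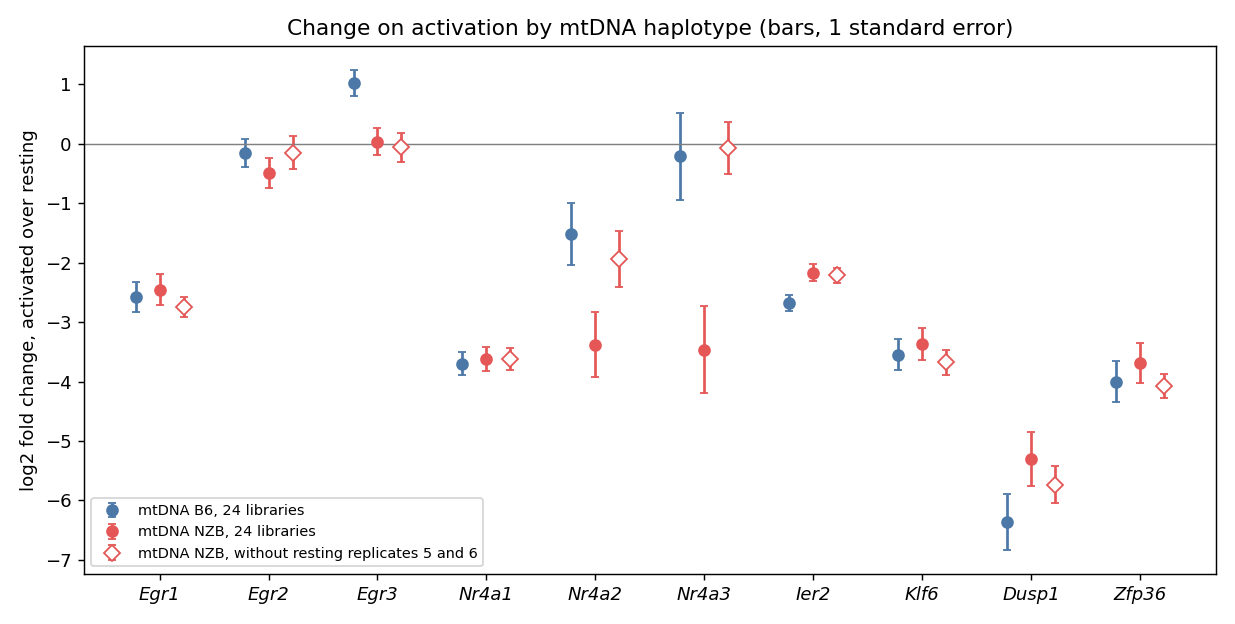
Log2 fold change of activated over resting cells for each gene, with bars of 1 standard error, for mtDNA B6, for mtDNA NZB, and for mtDNA NZB without resting replicates 5 and 6 (open diamonds). Dusp1 has the deepest fall in both haplotypes, at -6.36 and -5.30, Egr3 is above 0 in mtDNA B6 cells, and the open diamond of Nr4a3 moves from -3.46 to -0.07.

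To ask how activation changed the early genes as a group, the 4 groups were fitted together with edgeR, and genes with an adjusted p up to 0.05 were called. With mtDNA B6, 7 of the 10 genes fell, Egr3 rose, and Egr2 and Nr4a3 were not called, where 24.5% of all genes tested were lower and 22.4% higher. With mtDNA NZB, 8 fell and Egr2 and Egr3 were not called, where 28.4% of all genes were lower and 25.2% higher. Without resting mtDNA NZB replicates 5 and 6, 7 of the 10 fell, against 23.3% of genes. In mtDNA B6 cells, activated libraries had 1.88 to 2.13 reads per UMI and resting ones 2.17 to 2.73. With the set of libraries by that ratio as a term, 6 of the 10 fell with mtDNA B6 and 8 with mtDNA NZB. In that fit 33.4% and 51% of all genes were called in either direction. The median log2 fold change of the 10 genes was -2.63 in mtDNA B6 and -3.37 in mtDNA NZB cells, beside -0.03 and -0.06 over all genes tested. Activated libraries all lay below the resting ones for 6 of the 10 genes in mtDNA B6 cells (16.4% of all genes) and for 7 in mtDNA NZB cells (6.95%). Since the genes were chosen with these comparisons known, nothing is read from these shares.

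CPM are shares of a library, so fewer cells of a type and less RNA per cell cannot be told apart. Markers of other cell types moved with activation. Of 6 myeloid markers, the 5 tested fell in both haplotypes, and their summed level was 786 to 2605 CPM in resting and 14.1 to 66.5 CPM in activated mtDNA B6 cells, and 437 to 2825 and 5.88 to 99.2 CPM in mtDNA NZB cells. Of 8 neutrophil markers, the 7 tested fell in both, from 581 to 6826 CPM at rest to 5.81 to 66.5 CPM in mtDNA B6 cells, and from 349 to 19180 to 5.57 to 161 CPM in mtDNA NZB cells. Fcgr1 was at 0 in every activated library, whereas Lyz2, the most abundant of the myeloid markers, was not. All 6 erythroid markers fell, both CD8 markers rose, and none of 6 B cell markers was called in either haplotype. Without resting mtDNA NZB replicates 5 and 6, 6 of the 7 neutrophil and 5 of the 6 erythroid markers fell with mtDNA NZB. In that fit 1 of the 2 CD8 markers rose and 1 B cell marker fell with mtDNA NZB, and 1 B cell marker rose with mtDNA B6. Of 2 NK cell markers tested, the receptor gene Klrb1c fell in both, at -1.99 (SE 0.34) and -2.79 (SE 0.40), and the granule gene Nkg7 rose by 0.99 (SE 0.32) with mtDNA B6 and measured 0.71 (SE 0.33), not called, with mtDNA NZB. The NK sum was 110 to 179 CPM in resting and 177 to 505 CPM in activated mtDNA B6 cells, and 50.8 to 163 and 77.6 to 328 CPM with mtDNA NZB. Of 2 Treg markers tested, 1 rose with mtDNA B6 and both rose with mtDNA NZB, with Ikzf4 at 1.24 (SE 0.28) and 0.99 (SE 0.30), and their list summed to 22.3 to 31.4 CPM at rest and 28.0 to 48.9 CPM after activation in mtDNA B6 cells, and to 16.9 to 40.2 and 21.6 to 79.6 CPM with mtDNA NZB. The platelet sum was 8.27 to 53.4 CPM in resting and 72.5 to 504 CPM in activated mtDNA B6 cells. With mtDNA NZB it was 10.5 to 50.8 and 18.0 to 244 CPM. Of 3 platelet markers tested 2 rose in each haplotype, with the chemokine gene Pf4 at 3.82 (SE 0.65) and 3.65 (SE 0.74). Both dendritic cell markers tested fell. The summed T cell markers lay at 2674 to 3856 CPM in resting and 3052 to 3397 CPM in activated mtDNA B6 cells, and at 2412 to 4054 and 3026 to 4206 CPM with mtDNA NZB. The part of these cells in the early-gene levels was not tested.

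Of 11 heat shock genes, which also respond to cell handling, 7 fell after activation in each haplotype (24.5% and 28.4% of all genes were lower). Without resting mtDNA NZB replicates 5 and 6, 3 fell and 2 rose with mtDNA NZB, against 23.3% lower and 26.7% higher of all genes. The small heat shock protein gene Hspb1 had the largest fall averaged over the haplotypes, at -7.92 (SE 1.11) and -5.99 (SE 1.29). The summed level of the list was 5707 to 40108 CPM in resting and 4881 to 6500 CPM in activated mtDNA B6 cells, and 3133 to 19653 and 4994 to 6592 CPM in mtDNA NZB cells. The resting mtDNA B6 libraries were split, with replicates 5 and 6 at 6733 and 5707 CPM, near the activated level, and the other 4 at 17854 to 40108 CPM. Replicates 5 and 6 had 2.73 and 2.70 reads per UMI, and the other 4 had 2.17 to 2.24, which placed them in different sets of libraries by that ratio. Of 5 glucocorticoid-responsive genes tested, 4 fell in each haplotype, with the clock gene Per1 at -3.43 (SE 0.17) and -4.15 (SE 0.18), and Fkbp5, a co-chaperone of the receptor, rose by 0.85 (SE 0.12) and 0.84 (SE 0.13). Whether these had a part in the early-gene levels was not tested.

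**Figure D3:**
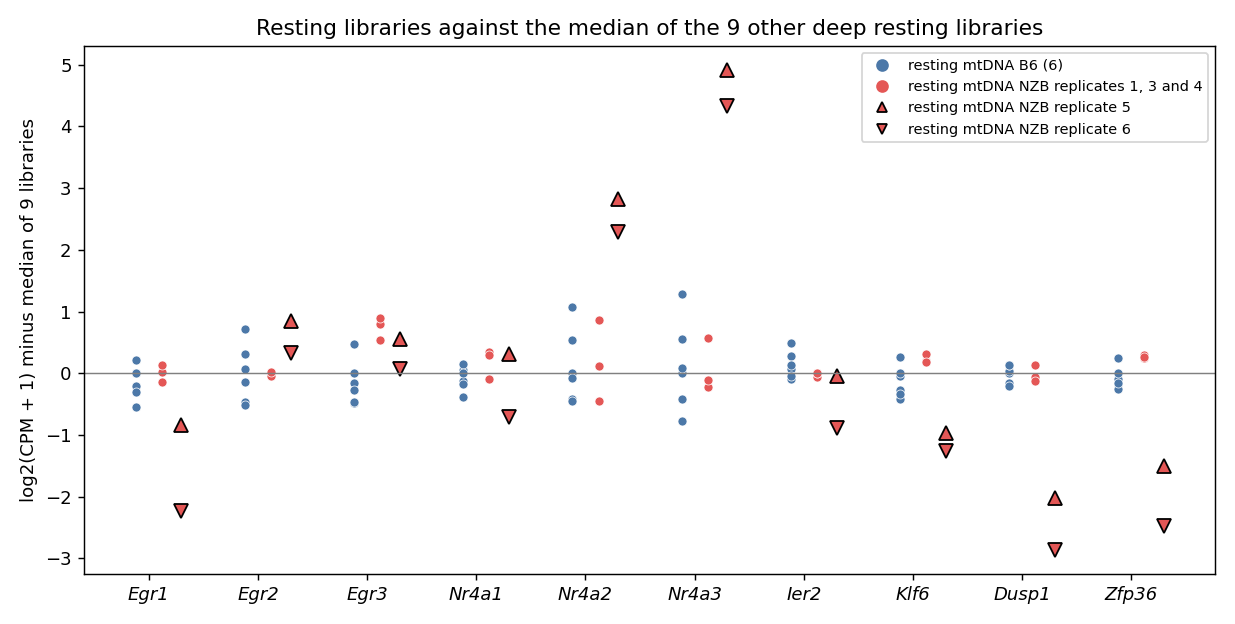
Deviation of each resting library from the median of 9 deep resting libraries, as log2(CPM + 1). The 9 are 6 of mtDNA B6 and mtDNA NZB replicates 1, 3 and 4. The smallest library, mtDNA NZB replicate 2, is not shown. Replicates 5 and 6 of mtDNA NZB (triangles) lie above all 9 for Nr4a2 and Nr4a3 and below all 9 for Egr1, Klf6, Dusp1 and Zfp36.

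Resting mtDNA NZB replicates 5 and 6 differed from the other resting libraries in both directions. Nr4a3 measured 292 CPM (638 UMI counts) in replicate 5 and 194 CPM (483 UMI counts) in replicate 6, against 4.72 to 22.6 CPM in the 9 other deep resting libraries. Nr4a2 measured 67.4 and 46.2 CPM, against 6.01 to 19.2 CPM. Both receptors thus lay above all 9. Of the 8166 genes with a mean of at least 10 CPM in either set, Nr4a3 had the largest rise in mean log2 level and Nr4a2 ranked 17, with differences of 4.57 and 2.47. The 2 libraries were singled out by several of the 10 genes. Their ranks here and in the next paragraph are therefore descriptions and not independent evidence.

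Dusp1, Zfp36, Egr1 and Klf6 went the other way in the same libraries. Dusp1 measured 352 and 197 CPM against 1244 to 1577 CPM, and Zfp36 475 and 243 CPM against 1126 to 1660 CPM. Egr1 measured 309 and 117 CPM against 378 to 641 CPM, and Klf6 203 and 165 CPM against 297 to 490 CPM. All 4 lay below the 9 other libraries, Dusp1 with the 7th lowest difference (-2.43) and Zfp36 with the 18th (-2.03). Nr4a1 (1798 and 890 CPM), Ier2 (818 and 454 CPM), Egr2 (45.4 and 31.3 CPM) and Egr3 (15.6 and 10.8 CPM) did not lie on 1 side in both libraries. Over all genes tested, 18.0% lay above and 17.1% below the 9 other libraries in both.

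Of 9 genes of the FOS and JUN family, 5 lay below and 1 above the 9 other libraries in both, and 3 did neither. Of 30 genes tested on the signal route to early genes, 11 lay above and 5 below. These counts and those of the lists that follow stand beside 18.0% above and 17.1% below over all genes tested. The CREB family gene Crem and the FOS relative Fosl2 lay above the 9 others in both, with means of 441 and 276 CPM against 27.1 and 29.7 CPM. Fos and Jun, which pair as AP-1, lay below the 9 others in both, with means of 299 and 452 CPM against 2149 and 2774 CPM. Replicates 5 and 6 had 2.72 and 2.68 reads per UMI, which placed them in the highest of 3 sets of libraries by that ratio. In the same set, resting mtDNA NZB replicate 2, the smallest library, held 661 CPM of Dusp1 (39 UMI counts) and 898 CPM of Zfp36, below the 9 deep libraries. Its Egr1 (254 CPM), Klf6 (288 CPM), Nr4a1 (711 CPM) and Ier2 (508 CPM) also lay below them, at 15 to 42 UMI counts. Resting mtDNA NZB replicate 4 and mtDNA B6 replicates 5 and 6 held 13.3 to 22.6 CPM of Nr4a3 and 1244 to 1577 CPM of Dusp1. The neutrophil sum was the lowest of the resting mtDNA NZB libraries in replicate 5 (349 CPM) and the highest in replicate 6 (19180 CPM). Among these libraries, replicate 6 also had the highest erythroid sum, 3463 CPM, and myeloid sum, 2825 CPM. Replicate 5 held 223 and 544 CPM, and the other 4 held 92.6 to 298 and 437 to 1254 CPM. Among resting mtDNA NZB libraries the heat shock sum was highest in replicate 5 (19653 CPM), and replicate 6 (11613 CPM) lay within the 3133 to 12407 CPM of the other 4. Resting mtDNA B6 libraries held 5707 to 40108 CPM. Of 11 heat shock genes, 1 lay above the 9 other deep libraries in both and none below. The T cell sum was 4040 and 2412 CPM. The Treg sum was 36.2 and 40.2 CPM, against 16.9 to 23.5 CPM in the other 4 and 22.3 to 31.4 CPM with mtDNA B6. Of 2 Treg markers tested, Ikzf4 lay above the 9 other deep libraries in both (mean of 21.2 CPM against 10.1), and 1 did neither. B cell and CD8 markers were low in both. The B cell sum was 256 and 239 CPM, against 637 to 1452 CPM in the other 4 resting mtDNA NZB libraries and at least 263 CPM with mtDNA B6, and 4 of 6 B cell markers (Cd79a, Pax5, Cd22 and Ms4a1) and both CD8 markers lay below the 9 other deep libraries in both. Of 8 T cell activation markers, 3 lay above the 9 other deep libraries in both and none below, namely Tnfrsf4 (mean of 149 CPM against 38.2), Icos (23.6 against 9.19) and Cd44 (69.5 against 37.2). Their list summed to 324 CPM in replicate 5 and 461 CPM in replicate 6, against 249 to 317 CPM in the other 4. Of 10 genes tested in the list of decay factors of AU-rich mRNAs, 6 lay above and none below. The 6 include Elavl1, which stabilises such mRNAs. The part of these cells, of activation and of the heat shock genes in the early-gene levels of replicates 5 and 6 was not tested.

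**Figure D4:**
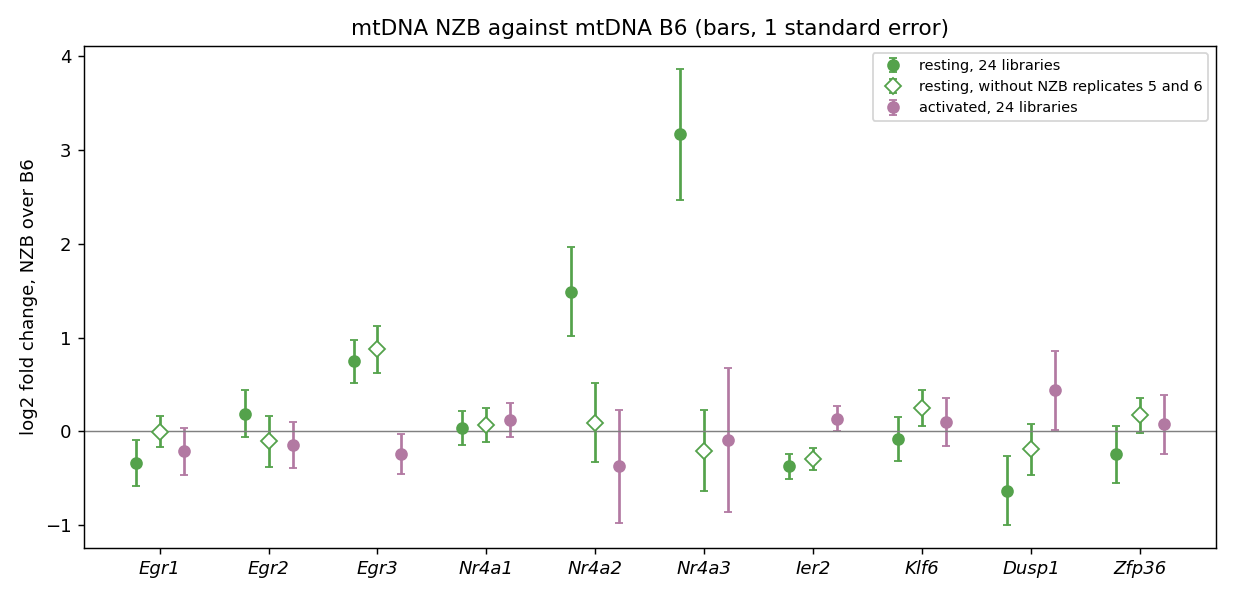
Log2 fold change of mtDNA NZB over mtDNA B6 cells for each gene with bars of 1 standard error, at rest, at rest without mtDNA NZB replicates 5 and 6 (open diamonds), and after activation. Nr4a3 at rest drops from 3.16 to -0.21 without those libraries, Egr3 at rest stays at 0.75 and 0.87, and the activated values lie between -0.37 and 0.44.

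To ask whether the mtDNA haplotype changed these genes at rest, mtDNA NZB cells were compared with mtDNA B6 cells. Nr4a3 was the 1 gene of the 10 called, 8.94-fold higher in mtDNA NZB cells (log2 fold change 3.16, SE 0.70, adjusted p = 0.0298, edgeR), where 1.9% of all genes were called higher. The ranges overlapped, and mtDNA NZB replicates 1, 3 and 4 (7.34, 8.06 and 13.4 CPM) lay within the range of mtDNA B6 cells. Replicate 2, with 0 counts, cannot be placed, since its limit of 50.8 CPM is above that range. Without replicates 5 and 6 the difference was -0.21 (SE 0.43, adjusted p = 0.901, edgeR) and none of the 10 was called, where 1.13% of genes were called in either direction. In that fit 6 of 11 heat shock genes and 5 of 6 erythroid markers were called lower with mtDNA NZB, and 0 higher. With all libraries 0 and 1 were called lower, where 2.76% of genes were called in either direction. Their part in the early-gene levels was not tested. The Nr4a3 call was also lost without replicate 5 alone (2.28, adjusted p = 0.164, edgeR), and without resting mtDNA B6 replicate 1, 3, 4 or 5 (adjusted p = 0.0618 to 0.0793, edgeR). It was lost as well when the 2 resting groups were fitted alone (3.17, adjusted p = 0.186, edgeR), with the replicate block by title number (2.64, adjusted p = 0.0657, edgeR) and with the library set as a term (2.23).

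Egr3 was higher in the resting mtDNA NZB mean by 0.75 (SE 0.23, 95% interval 0.29 to 1.20, adjusted p = 0.0697, edgeR) and did not pass the threshold. Its value was 0.87 (SE 0.25, adjusted p = 0.0774, edgeR) without replicates 5 and 6 and 0.88 (SE 0.22, adjusted p = 0.0249, edgeR) over 21 libraries. Nr4a2 differed by 1.49 (SE 0.47, adjusted p = 0.0756, edgeR), and by 0.09 (SE 0.42) without replicates 5 and 6. The other 7 genes differed by -0.63 (Dusp1) to 0.19 (Egr2), with adjusted p of 0.110 (Ier2) or more by edgeR.

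After activation, none of the 10 genes was called between haplotypes, and 0 of the 10566 genes tested was (0%); 327 genes (3.09%) and none of the 10 had an unadjusted p under 0.05 by edgeR, and DESeq2 also called 0. The differences ranged from -0.37 (Nr4a2, SE 0.60, 95% interval -1.55 to 0.80) to 0.44 (Dusp1, SE 0.42, -0.39 to 1.26). The intervals were narrowest for Ier2 (0.14, -0.13 to 0.40) and Nr4a1 (0.12, -0.24 to 0.48).

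To ask whether activation acted unequally in the haplotypes, an interaction term was tested, and it called none of the 10 genes and 0 genes in all (0%) by edgeR, while 1512 genes (14.3%) had an unadjusted p under 0.05 and DESeq2 called 1. Over the 21 libraries edgeR called 113 genes (1.04%) and none of the 10, with Egr3 at -1.21 (SE 0.31, adjusted p = 0.0537). In the fit of all libraries, 4 of the 10, namely Nr4a3 (-3.25, SE 1.03), Egr3 (-0.99, SE 0.32), Ier2 (0.51, SE 0.19) and Nr4a2 (-1.86, SE 0.76), had an unadjusted p under 0.05. Without resting mtDNA NZB replicates 5 and 6, Nr4a3 and Nr4a2 measured 0.09 (SE 0.57) and -0.47 (SE 0.62), whereas Egr3 and Ier2 measured -1.13 (SE 0.32) and 0.41 (SE 0.16). The haplotypes' responses share no libraries, but each response shares its resting or activated libraries with a comparison between haplotypes, so these values are not independent of those above.

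**Figure D5:**
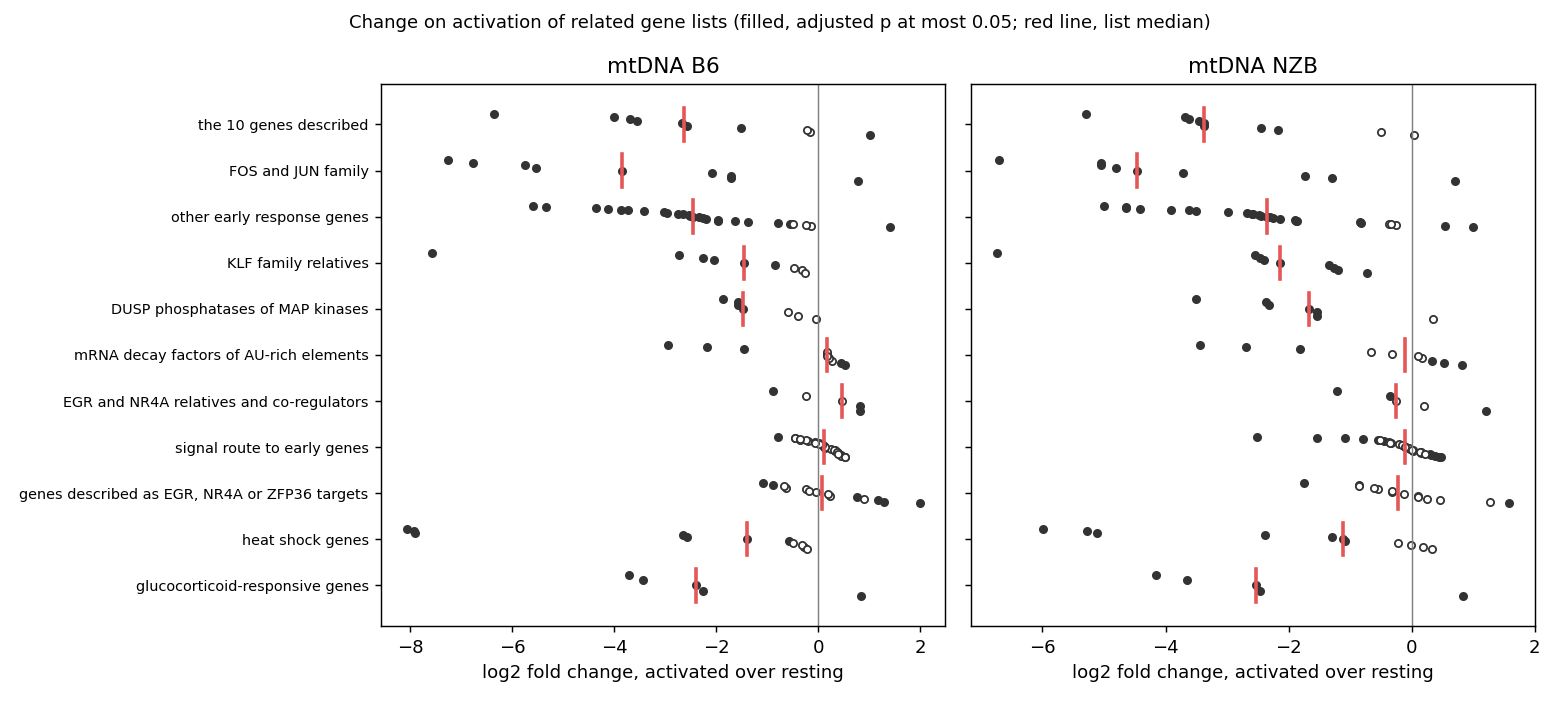
Log2 fold change on activation of the 10 genes and of 10 related lists in mtDNA B6 and mtDNA NZB cells; each point is a gene tested, filled where called, and the red line is the median of the list. The medians of the FOS and JUN family lie at -3.84 and -4.46, while those of the signal route to early genes lie at 0.12 and -0.10.

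Related genes were described from lists of the same pathways. In the FOS and JUN family 8 of 9 genes fell and Batf rose in both haplotypes (24.5% and 28.4% of all genes were lower). Without resting mtDNA NZB replicates 5 and 6, 7 of the 9 fell with mtDNA NZB, against 23.3% of all genes. Fosb had log2 fold changes of -7.25 (SE 0.39) and -6.71 (SE 0.39), while Batf, a JUN partner of differentiating T cells, rose by 0.77 (SE 0.13) and 0.70 (SE 0.14). Of 27 other early response genes tested, 23 fell in mtDNA B6 and 22 in mtDNA NZB cells, against the same shares. Rgs2, a regulator of G protein signalling, fell, at -5.33 (SE 0.31) and -4.64 (SE 0.31), and the NF-kappaB cofactor Bcl3 rose by 1.40 (SE 0.17) and 1.00 (SE 0.18).

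The relatives of individual genes are set against the same shares of all genes, 24.5% lower with mtDNA B6 and 28.4% with mtDNA NZB. Of 9 KLF relatives of Klf6 tested, 6 fell in mtDNA B6 and 9 in mtDNA NZB cells, with Klf4 at -7.57 (SE 0.37) and -6.75 (SE 0.36). Of 7 DUSP relatives of Dusp1, 4 and 6 fell, with Dusp10 at -1.86 (SE 0.37) and -3.51 (SE 0.40). Resting mtDNA NZB replicates 5 and 6 held a mean of 789 CPM of Dusp10, against 258 CPM in the 9 other deep resting libraries. Without them, 8 of the 9 KLF and 5 of the 7 DUSP relatives fell with mtDNA NZB, against 23.3% of all genes. In that fit 7 and 4 fell with mtDNA B6, against 25.9% of all genes. At rest Dusp10, Dusp16 and Dusp5 were called higher in mtDNA NZB cells, where 1.9% of all genes were, and none of them was without replicates 5 and 6, where 1.13% of genes were called in either direction. Of 10 genes tested in the list of decay factors, which also holds Elavl1, 3 fell in both haplotypes, a share near that of all genes. These were the Zfp36 paralogs Zfp36l1 and Zfp36l2 and the RNase gene Zc3h12a. Zfp36l2 changed by -2.94 (SE 0.28) and -3.45 (SE 0.30), and Elavl1, which stabilises AU-rich mRNAs, rose by 0.45 (SE 0.12) and 0.52 (SE 0.13).

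The signal route and the target list had median log2 fold changes near 0, at 0.12 and -0.10 for the former and 0.07 and -0.22 for the latter. Of 30 genes tested on the signal route, 6 rose and 3 fell with mtDNA B6, whereas 5 rose and 6 fell with mtDNA NZB. Of all genes 22.4% rose and 24.5% fell with mtDNA B6, and 25.2% and 28.4% with mtDNA NZB, so these counts are near or below the background. Without resting mtDNA NZB replicates 5 and 6 the counts were 11 and 3 with mtDNA B6 (27.3% and 25.9% of all genes) and 5 and 5 with mtDNA NZB (26.7% and 23.3%). Srf, the CArG box factor, rose by 0.45 (SE 0.12) and 0.47 (SE 0.12), and Nfatc2 rose by 0.52 (SE 0.17) and 0.44 (SE 0.17), the latter not called without replicates 5 and 6 (0.42, adjusted p = 0.0681, edgeR). Creb1 fell, at -0.79 (SE 0.21) and -1.08 (SE 0.23). Of 5 EGR and NR4A relatives and co-regulators tested, the NR4A partner Rxra rose by 0.81 (SE 0.25) and 1.21 (SE 0.27) and the orphan receptor gene Nr2c1 fell, at -0.89 (SE 0.30) and -1.21 (SE 0.34). Nab2, a corepressor of EGR factors, rose in mtDNA B6 cells by 0.81 (SE 0.20) and measured 0.20 (SE 0.20) with mtDNA NZB, where it was called at 0.74 without replicates 5 and 6. Of 14 genes described as EGR, NR4A or ZFP36 targets, 4 rose and 2 fell with mtDNA B6, and 1 rose and 2 fell with mtDNA NZB (5 and 3 without replicates 5 and 6), against the shares of all genes just given. Socs1, an inhibitor of cytokine signalling, rose in both, by 1.28 (SE 0.34) and 1.58 (SE 0.37).

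Within groups the 10 genes did not vary as a block. After the mean of each group was removed, the correlation of each gene with the mean of the others over the 23 libraries of at least 500000 UMI counts ran from -0.42 (Nr4a3) to 0.59 (Nr4a1). Egr1 and Zfp36 (r = 0.87), Klf6 and Dusp1 (0.85), and Nr4a2 and Nr4a3 (0.71) varied together, and Nr4a3 and Zfp36 in opposite directions (-0.71). Without resting mtDNA NZB replicates 5 and 6 these values were 0.45, 0.66, 0.41 and 0.18, and Egr1 and Egr2 went from 0.12 to 0.82. The genes most like the mean of the 10 by this measure, of 8168 ranked, were Rab6b (0.79), Irf2bpl (0.78), Bach2 (0.76), Ankib1 (0.72) and Sec16a (0.72). The range over the 10 genes and this ranking are given only with resting mtDNA NZB replicates 5 and 6. The points share libraries and depth, so these correlations are descriptions.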

How the data were processed

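RNA of resting and activated Tconv CD4+ cells was sequenced at the 3′ end by bulk MARS-seq in 24 libraries, and groups were taken from the sample labels. Per the paper's methods and the submitters' processing notes, the authors trimmed reads with cutadapt, dropped those under 30 bases, mapped the rest with STAR to the last 1000 bases of genes (GRCm39, Ensembl version 106), counted with HTSeq, collapsed reads by UMI and applied a saturation correction. The deposited values are whole-number counts with no scaling between libraries. Another deposited file with larger counts was taken to hold counts before UMI collapse. Of the value columns, 1 matched no sample and was not used. Strand in the counting is not given in the sources used here. None of the 10 genes overlaps another gene in its last 1000 bases.

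The 4 groups were fitted in 1 model with edgeR 4.0.16 in R 4.3.3 (quasi-likelihood test, TMM scaling, filterByExpr, Benjamini-Hochberg over all genes tested, call at an adjusted p of at most 0.05, no fold cut-off). Standard errors are the log2 fold change over the square root of F, and 95% intervals are 1.96 SE. Scripts were tested on simulated data. The genes, related lists and rule for named list genes (the largest rise and fall called the same way in both haplotypes at a mean of 10 CPM or more) were chosen with earlier results of these data known. Srf, Nab2, Nr2c1, Crem, Fosl2, Fos, Jun, Zc3h12a, Zfp36l1, Dusp5, Dusp16, Nkg7, Tnfrsf4, Icos, Cd44, Lyz2, Fcgr1, Cd79a, Pax5, Cd22 and Ms4a1 were named after their values were seen. Likeness was Pearson's r of log2 CPM (prior count 2) after removing group means. Alternatives were DESeq2 1.42.0, other scaling, filters, a fold cut-off, the second table, fewer groups or libraries, a replicate block, and the reads-per-UMI set as a term. Figures were drawn with matplotlib.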

Additional observations from a re-analysis of the deposited data

Results flagged for a closer look

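A sample far from the others of its group was found in 2 of 40 groups of a gene and condition (10 genes in 4 groups of 6 libraries), and chance flags about 1 in 20. Dusp1 in activated mtDNA B6 replicate 5 measured 33.5 CPM, above the group's median of 15.5 CPM. Egr2 in activated mtDNA NZB replicate 6 measured 33.9 CPM, above a median of 18.0 CPM. Without the latter library the change of Egr2 on activation of mtDNA NZB cells was -0.74 and passed the threshold (adjusted p = 0.0154, edgeR).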

How the results depend on the processing

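Of 1819 values (50 changes of the 10 genes under up to 37 alternatives), 1751 kept their direction and their side of the threshold, 13 no longer passed it, 7 newly passed it and 48 changed sign. Of these 48, 47 concerned changes not called in the fit of all libraries, and none was called after the change of sign. The exception was Nr4a3 between haplotypes at rest, -0.21 without resting mtDNA NZB replicates 5 and 6, an alternative chosen after seeing the data. The same alternative changed the sign of Egr2 (-0.11), Klf6 (0.25) and Zfp36 (0.17) at rest, of Egr3 on activation of mtDNA NZB cells (-0.060), and of the interaction for Egr1 (-0.22), Nr4a3 (0.093), Klf6 (-0.18) and Zfp36 (-0.11). Over 21 libraries the sign changed for Egr3 on activation of mtDNA NZB cells (-0.18), Klf6 (0.13) and Zfp36 (0.056) at rest, Zfp36 between activated haplotypes (-0.052), and the interaction of Egr1 (-0.30), Nr4a1 (-0.16) and Zfp36 (-0.11). Elsewhere it changed for Egr3 on activation of mtDNA NZB cells with a stricter filter (-0.031) or the library set as a term (-0.11), for Nr4a3 on activation of mtDNA B6 cells with that term (0.83), for Zfp36 between activated haplotypes in the second table (-0.024), and for the Nr4a1 interaction without the smallest library (-0.027).

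Leaving out 1 library at a time, uncalled changes that crossed 0 ran from -0.27 to 0.070 (Egr2) and -0.35 to 0.14 (Nr4a3) on activation of mtDNA B6 cells, -0.071 to 0.18 (Egr3) on activation of mtDNA NZB cells, -0.053 to 0.15 (Nr4a1) and -0.21 to 0.087 (Klf6) at rest, -0.32 to 0.050 (Nr4a3), -0.051 to 0.24 (Klf6) and -0.047 to 0.19 (Zfp36) between activated haplotypes, and -0.090 to 0.29 (Egr1) and -0.029 to 0.17 (Nr4a1) in the interaction.

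At rest 1 gene of the 10 was called (2.76% of all genes in either direction), but 0 when only the resting groups were fitted (0%), with the replicate block by title number (0.681%), with the library set as a term (0.00946%) and without replicates 5 and 6 (1.13%), and 2 over 21 libraries (6.11%); the cause was not tested. Leaving out 1 library at a time gave 0 to 2 of the 10 at rest (0 to 5.48% of all genes), 7 to 8 on activation in mtDNA B6 (42.4 to 49.3%) and 8 to 9 in mtDNA NZB cells (49.9 to 54.8%), and 0 between activated haplotypes and in the interaction (0 to 0.00934%). At rest Nr4a3 lost its call without resting mtDNA NZB replicate 5 (2.28) and without resting mtDNA B6 replicate 1, 3, 4 or 5 (3.10, 2.99, 3.06 and 3.24, against 3.16). Nr4a2 was called without resting mtDNA NZB replicate 1 or 3, and Egr3 without resting mtDNA NZB replicate 6 or mtDNA B6 replicate 2. With the library set as a term, Nr4a2 on activation of mtDNA B6 cells lost its call (-1.41, adjusted p = 0.106, edgeR).

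The sources used here do not say that a label number marks a mouse, so the numbers were not taken as pairs in the main fit. Deviations of libraries that share a number had correlations of -0.16 to 0.25. Resting and activated cells are compared there, so these values can neither show nor exclude a shared mouse. With the replicate block by label number, 8 of the 10 were called in mtDNA B6 (40.6% of all genes) and 7 in mtDNA NZB cells (39.1%), where Nr4a3 was -1.73 (adjusted p = 0.131, edgeR), and 0 in the interaction; Egr2 on activation of mtDNA B6 cells (0.13), Egr3 on activation of mtDNA NZB cells (-0.12) and the Nr4a1 interaction (-0.12) changed sign. With the block by title number Nr4a3 on activation of mtDNA B6 cells was 7.0e-05. Counts of Nr4a2, Nr4a3, Egr2 and Egr3 were low in most libraries, and the part of this in their standard errors was not tested.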
